A study of Mus musculus with 10 samples.

Results

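The 10 genes described here encode enzymes that oxidize or reduce aldehydes and ketones: 5 aldehyde dehydrogenases (Aldh3a1, Aldh3a2, Aldh1a1, Aldh1a7 and Aldh2), 2 aldo-keto reductases (Akr1b8 and Akr1b7), 2 alcohol dehydrogenases (Adh7 and Adh1) and the carbonyl reductase Cbr3. They were chosen by name, as enzymes of these families and with earlier results of these data known, and all 10 were found among the 27670 genes on the arrays, with 13 probes. Lungs of 5 female BALB/c mice, an inbred laboratory strain, exposed to cigarette smoke for 8 weeks were compared with those of 5 female BALB/c mice exposed to room air, with 1 lung per array. The mice were bought at 6 to 8 weeks of age, and in each of 2 daily sessions of 50 minutes, on 5 days per week, the smoke group received whole-body mainstream smoke of 12 unfiltered reference cigarettes. Whole lungs were used, so that more cells of a type and more RNA per cell cannot be told apart.

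Cigarette smoke carries reactive aldehydes such as acrolein, formaldehyde and acetaldehyde, and more aldehydes form when lipids are oxidized. Aldehyde dehydrogenases oxidize them to acids, while aldo-keto reductases, carbonyl reductases and some alcohol dehydrogenases reduce carbonyl groups to alcohols. In the lung these enzymes are known from the airway epithelium, alveolar cells and macrophages, and several of their genes are known targets of the transcription factors Nrf2 and the aryl hydrocarbon receptor.

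Each array held a red and a green channel, although the labels name a single dye. Genes of the Y chromosome were seen in green (Ddx3y, log2 processed signal 9.92 ± 0.43, SD, n = 10 arrays) and hardly in red (2.97 ± 1.15). The male genes Eif2s3y (9.76 in green, 2.76 in red) and Kdm5d (8.12, 4.06) showed the same pattern. The lung genes Sftpc, Scgb1a1 and Ager were brighter in red by 6.39, 6.72 and 4.83. The Sftpc probe was saturated on 1 array, so its difference is not exact. Red was therefore read as female lung RNA and green as a reference with male RNA, and a level below is the log2 ratio of red over green for 1 probe. Every direction rests on this reading and on the assignment of the scanner files to the samples. The deposited table of processed values carries the groups exchanged against these files. The authors' paper lists Aldh3a1 among the genes raised by smoke in mice, which is the direction of the scanner files. In red, 64.9 to 77.5% of the spots of an array were well above background.

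Smoke raised 4 of the 10 genes: Akr1b8 by 3.71-fold, Aldh3a1 by 2.45-fold, Cbr3 by 2.06-fold and Adh7 by 1.60-fold. These 4 had an adjusted p under 0.05 by limma, a linear model fitted to all 41173 probes with Benjamini-Hochberg adjustment, in which 7.06% of the probes passed. Among all genes, each represented by its brightest probe in red, 4.96% were higher with smoke and 3.27% lower at the same threshold, and 0 of the 10 enzymes were lower in this fit. With the slide as a block 5 were higher and 1, Aldh2, was lower, as given below. In the same 4 genes every smoke lung lay above every room air lung, which held for 4.61% of all genes. Since the 10 were chosen with results known, these shares describe the arrays and do not test the group. The median log2 difference was 0.12 over the 10 genes and -0.0042 over all genes, with a range from -0.55 for Aldh2 to 1.89 for Akr1b8.

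**Figure D1:**
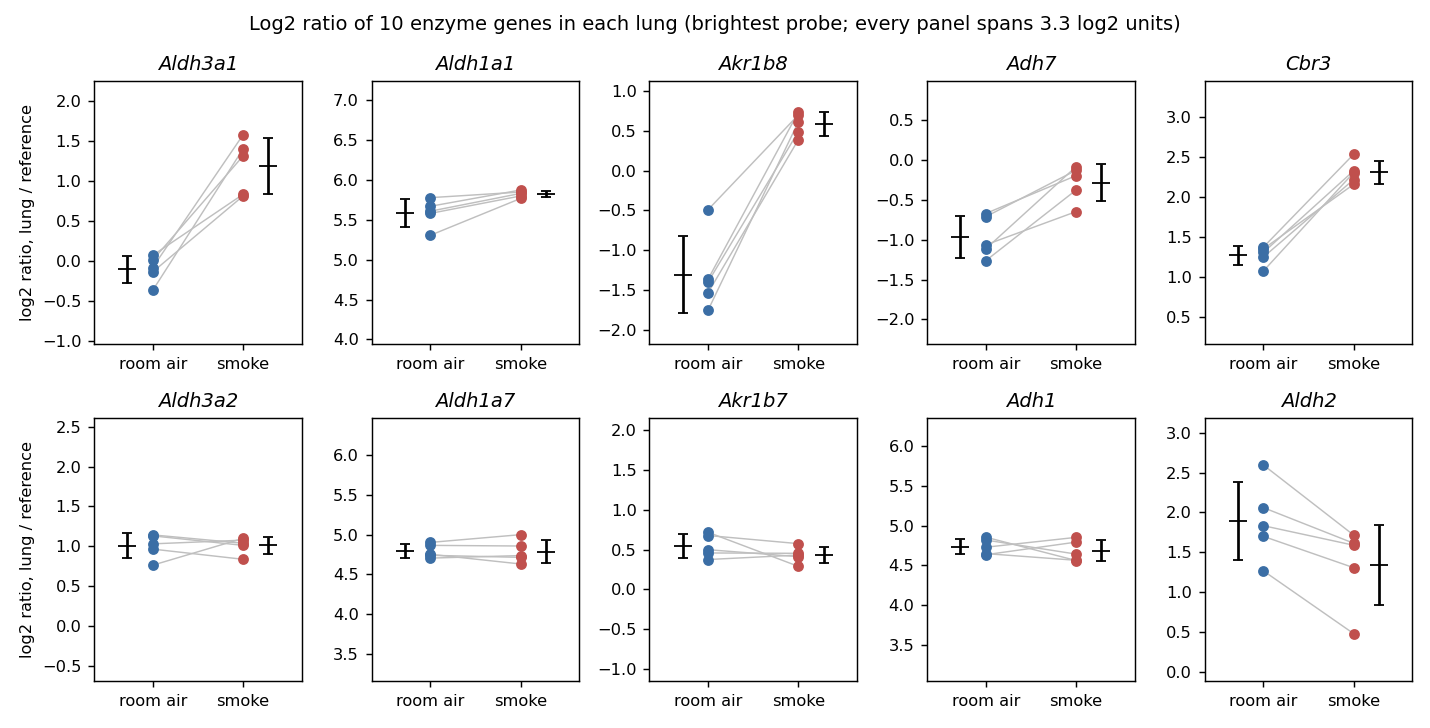
Log2 ratio of lung over reference signal in each of the 10 lungs for the brightest probe of each gene, with room air in blue, smoke in red, grey lines joining arrays of the same slide, and black bars for the mean and SD (n = 5). The groups are apart for Aldh3a1, Akr1b8, Adh7 and Cbr3 and overlap for the other 6 genes.

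Aldh3a1 encodes a cytosolic dehydrogenase of aromatic and medium-chain aldehydes. Its only probe is shown because it spans 731 bases of the genome with 60 bases of its own, at chr11:61297126-61297856 of the mm7 build named in the file headers, and so crosses an exon junction:
Aldh3a1 probe: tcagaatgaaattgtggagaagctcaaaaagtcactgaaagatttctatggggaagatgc
The log2 ratio of Aldh3a1 was -0.37, 0.01, -0.08, -0.14 and 0.07 in room air replicates 1 to 5 and 1.40, 1.32, 1.58, 0.81 and 0.84 in smoke replicates 1 to 5. Smoke replicates 4 and 5 were the lowest of their group, yet still above the highest room air lung, replicate 5. The difference was 1.29 (SE 0.15, adjusted p = 0.000378, limma), and within the 5 slides, each of which carried the smoke and the room air array of 1 replicate number, it ran from 0.77 to 1.77. The spot was dim with room air, where the red processed signal was 46.8 to 126 units, against 348 to 769 units with smoke. The offset added to each signal before taking ratios lowers the fold change of such a spot. With the red processed signal alone the rise of Aldh3a1 was 7.88-fold, while the green reference signal differed by 0.18 on the log2 scale (exact permutation p = 0.429, n = 5 per group).

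Aldh3a2, the neighbouring gene for the fatty aldehyde dehydrogenase of the endoplasmic reticulum, had 0.76, 1.13, 1.03, 0.97 and 1.14 with room air. Its values with smoke were 1.10, 1.01, 1.08, 0.84 and 1.04. The groups overlapped almost completely, with a difference of 0.0063 and a 95% confidence interval from -0.17 to 0.18. The smoke effect on Aldh3a1 was larger than that on Aldh3a2 by 1.29 (SE 0.13). This was tested with an exact two-sided permutation test of the within-array difference of both ratios (p = 0.00794, adjusted p = 0.00992 over 5 such pairs), and 0.00794 is the smallest p that 5 arrays against 5 allow. For all 5 pairs this p describes the spread between arrays of 1 lung each, slide and array effects included. The genes were chosen with earlier results known, so it does not say how often such a contrast arises. In this ratio, which includes the offset, the within-array difference had an SD of 0.022 with room air and 0.28 with smoke. For Aldh3a1 itself the SD was 0.17 with room air and 0.35 with smoke in the ratio. In the red processed signal alone it was 0.62 and 0.43, so the order of the spreads depends on the measure.

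Akr1b8, an aldose reductase-like enzyme that reduces aldehydes and retinal, rose most of the 10 in this ratio, whereas with the red signal alone Aldh3a1 and Adh7 rose more. Its log2 ratio was -0.49, -1.36, -1.75, -1.40 and -1.53 in room air replicates 1 to 5. In smoke replicates 1 to 5 it was 0.70, 0.73, 0.61, 0.49 and 0.39. Room air replicate 1 stood nearest to the smoke lungs but below all of them, and the smoke lungs lay close together (SD 0.14, against 0.48 with room air). The difference was 1.89 (SE 0.19, adjusted p = 0.000156), it was 1.19 to 2.36 within the 5 slides, and without room air replicate 1 it was 2.10. The red signal alone gave 3.67-fold. Akr1b7, a relative known from the adrenal gland and the vas deferens, had a difference of -0.11 (95% confidence interval -0.28 to 0.05), with room air lungs between 0.37 and 0.72 and smoke lungs between 0.29 and 0.57. The effects on Akr1b8 and Akr1b7 differed by 2.00 (SE 0.26, exact permutation p = 0.00794, adjusted p = 0.00992).

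The promoters of 8 of the 10 genes were matched in the RefSeq table of the GRCm38.p6 build, from 250 bases before to 50 after a start, and Aldh3a1 and Aldh2 were not used here. They are shown because the 2 factors named above bind known short cores. The core of the xenobiotic response element, GCGTG, was searched on both strands, as was that of the antioxidant response element, TGACNNNGC. Of all 32851 promoters of this length 32.4% held the first and 12.4% the second. The first was found once each in the promoters of Akr1b8, Adh7 and Aldh3a2, and 0 of the members' promoters held the second. In Akr1b8 it began at position -26 from the start, and Akr1b7 had none, as the 250 bases before each start show, with the match in capitals. In Adh7 the match lay after the start, and Cbr3 had none, while its relative Cbr1 had 2. Binding was not measured, and a match of these letters is a description of the sequence.
Akr1b8, chr6:34353896-34354145, plus strand: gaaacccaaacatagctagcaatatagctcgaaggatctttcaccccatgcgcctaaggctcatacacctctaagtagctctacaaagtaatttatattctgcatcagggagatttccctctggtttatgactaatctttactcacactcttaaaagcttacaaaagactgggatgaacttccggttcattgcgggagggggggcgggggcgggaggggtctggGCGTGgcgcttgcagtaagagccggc
Akr1b7, chr6:34412112-34412361, plus strand: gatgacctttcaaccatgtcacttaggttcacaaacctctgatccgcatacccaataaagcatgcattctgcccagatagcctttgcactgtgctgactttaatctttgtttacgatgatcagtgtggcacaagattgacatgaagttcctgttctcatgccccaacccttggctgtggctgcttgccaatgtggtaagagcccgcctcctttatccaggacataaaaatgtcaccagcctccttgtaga
Adh7, chr3:138217523-138217772, plus strand: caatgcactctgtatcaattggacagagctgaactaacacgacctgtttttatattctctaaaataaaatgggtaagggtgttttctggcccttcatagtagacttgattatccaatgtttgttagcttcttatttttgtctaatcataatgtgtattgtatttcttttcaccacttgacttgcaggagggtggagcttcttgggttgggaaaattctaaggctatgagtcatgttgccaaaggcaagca
Cbr3, chr16:93682969-93683218, plus strand: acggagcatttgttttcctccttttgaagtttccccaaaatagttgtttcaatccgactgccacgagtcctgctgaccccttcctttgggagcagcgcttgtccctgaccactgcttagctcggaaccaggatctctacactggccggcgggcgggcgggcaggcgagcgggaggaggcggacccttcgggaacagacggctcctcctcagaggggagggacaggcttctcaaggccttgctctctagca

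Cbr3 encodes a carbonyl reductase that uses NADPH. Its log2 ratio was 1.37, 1.07, 1.30, 1.35 and 1.24 in room air replicates 1 to 5 and 2.54, 2.31, 2.33, 2.16 and 2.22 in the smoke replicates. Both groups were tight, and the lowest smoke lung was above the highest room air lung by more than either SD (0.12 with room air and 0.14 with smoke). In this fit Cbr3 had the smallest adjusted p of the 10 genes, with a difference of 1.04 (SE 0.079, adjusted p = 2.14e-05), and all 5 slides showed it, at 0.81 to 1.24. Its relative Cbr1 differed by 0.13 (adjusted p = 0.338). The effects on Cbr3 and Cbr1 differed by 0.91 (SE 0.11, exact permutation p = 0.00794, adjusted p = 0.00992).

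Adh7, the alcohol dehydrogenase of class IV, oxidizes retinol and ethanol and is known from the upper digestive tract and other epithelia. Its log2 ratio was -1.12, -0.67, -1.06, -1.26 and -0.71 with room air. With smoke the values were -0.08, -0.20, -0.65, -0.38 and -0.13. The groups came close to each other at smoke replicate 3 and room air replicate 2, without overlap. The difference was 0.68 (SE 0.14, adjusted p = 0.0109), 0.42 to 1.03 within the slides. Like Aldh3a1, Adh7 was dim, with a red processed signal of 32.6 to 84.0 units with room air and 115 to 362 with smoke, and the red signal alone gave a rise of 3.85-fold.

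Adh1, the class I enzyme that carries most ethanol oxidation in the liver, had 3 probes. The brightest 2 share 30 bases, in capitals, so they are not independent measurements of Adh1; they lie at chr3:138098402-138098461 and, across a junction, at chr3:138098432-138099085 of mm7:
Adh1 brightest probe: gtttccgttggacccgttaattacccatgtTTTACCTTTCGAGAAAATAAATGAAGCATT
Adh1 overlapping probe: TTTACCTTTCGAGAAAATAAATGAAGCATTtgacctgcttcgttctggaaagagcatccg
Their differences were -0.05 and -0.18, with adjusted p of 0.812 and 0.54. The third probe of Adh1, on the opposite strand, was not well above background on any array. The brightest probe of Adh1 ran from 4.63 to 4.85 with room air and from 4.56 to 4.85 with smoke, an almost complete overlap. Between Adh7 and Adh1 the effects differed by 0.73 (SE 0.13, exact permutation p = 0.00794, adjusted p = 0.00992).

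**Figure D2:**
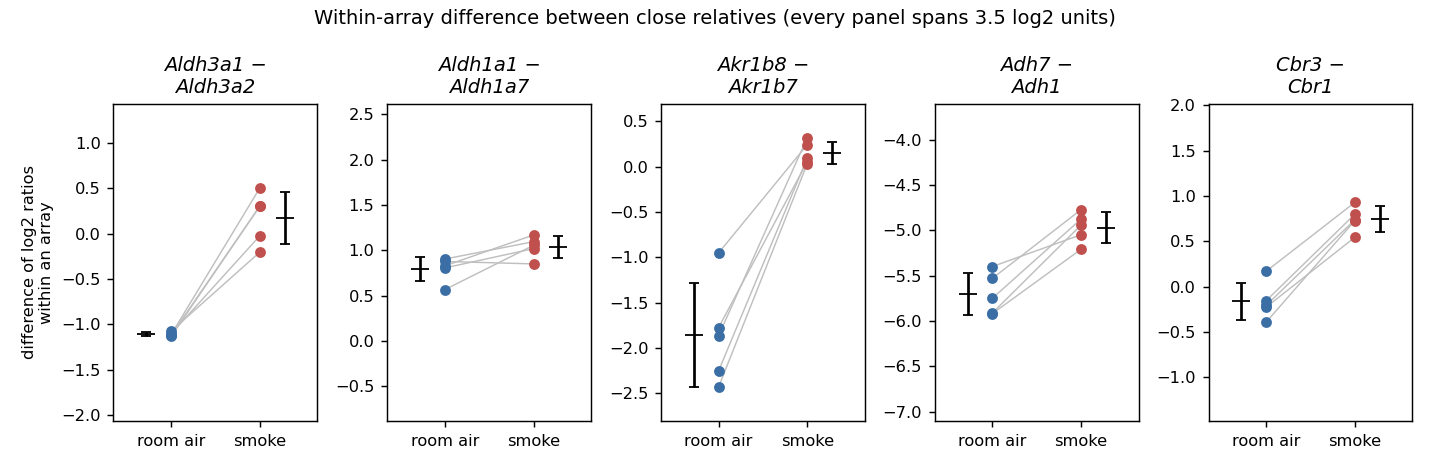
Within-array difference of the log2 ratios of each pair of close relatives, for 5 room air and 5 smoke lungs, with grey lines joining arrays of a slide and black bars for the mean and SD. The groups are apart in 4 pairs and overlap for Aldh1a1 and Aldh1a7.

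Aldh1a1, a retinaldehyde dehydrogenase of epithelial cells, was 5.31, 5.78, 5.67, 5.58 and 5.61 with room air. With smoke it was 5.77, 5.85, 5.87, 5.80 and 5.83. The smoke lungs were nearly alike (SD 0.041), and only room air replicate 2 reached into their range. The difference of 0.24 (SE 0.077) was not past the threshold (adjusted p = 0.102), but it was with the slide as a block (adjusted p = 0.0389), and all 5 slides showed it, at 0.46, 0.07, 0.20, 0.22 and 0.22. Aldh1a7, its close relative beside it on the chromosome, had a difference of -0.0052 (95% confidence interval -0.16 to 0.15). The effects on Aldh1a1 and Aldh1a7 differed by 0.24 (SE 0.08, exact permutation p = 0.0238, adjusted p = 0.0238), in 4 of 5 slides. Whether the probes of Aldh1a1 and Aldh1a7, or of Akr1b8 and Akr1b7, bind the transcript of the relative was not tested.

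Aldh2, the mitochondrial enzyme that oxidizes acetaldehyde, had the most scattered values. Its brighter probe read 2.06, 1.27, 2.59, 1.83 and 1.70 with room air and 1.61, 0.48, 1.72, 1.59 and 1.31 with smoke. Smoke replicate 2 was the lowest of the smoke lungs and its slide partner, room air replicate 2, was the lowest of its own group. The groups overlapped, and the difference of -0.55 (95% confidence interval -1.14 to 0.04) was not past the threshold (adjusted p = 0.318). With 1 array left out it ran from -0.71 without room air replicate 2 to -0.34 without smoke replicate 2. With the slide as a block Aldh2 passed as lower (adjusted p = 0.00804), with differences of -0.45, -0.79, -0.88, -0.24 and -0.39 on slides 1 to 5. Its other, dimmer probe did not show the fall, at -0.03 (adjusted p = 0.951 and, with the block, 0.853). With the slide as a block, 6 of the 10 enzymes were called, 5 higher, where 7.52% of all genes were higher, and 1 lower, where 6.27% were lower.

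**Figure D3:**
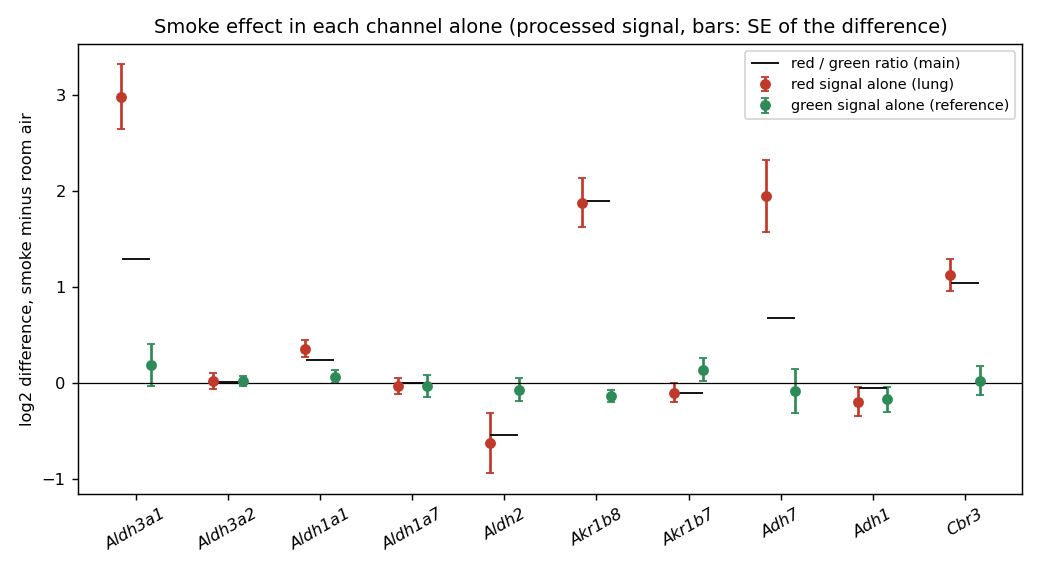
Difference between smoke and room air on the log2 scale in the red (lung) and the green (reference) processed signal taken alone, with the SE of the difference (n = 5 per group), and in the main ratio (black dash). For Aldh3a1 and Adh7 the red signal alone gives 2.98 and 1.94, above the ratio's 1.29 and 0.68, and the green signal differs by 0.18 at most.

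Other enzymes were read from lists made by family and from a list of 6 genes that handle alkenals, formaldehyde and glyoxal. Of 45 listed genes 44 were measured, 6 were higher with smoke, where 4.96% of all genes were, and 2 lower, where 3.27% were, and their median log2 difference was 0.085. The family lists alone held 38 measured genes, of which 3 were higher and 2 lower, with a median of 0.069. Among 15 other aldehyde dehydrogenases, Aldh3b1, which acts on lipid-derived aldehydes at membranes, rose 1.28-fold (adjusted p = 0.0218) and Aldh16a1 1.16-fold (adjusted p = 0.0218). Both lost the call when some arrays were left out, Aldh3b1 without smoke replicate 1, 2 or 3 (adjusted p up to 0.0569) and Aldh16a1 without room air replicate 2, 3 or 5 or smoke replicate 1 or 4 (up to 0.0609).

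In the same family 2 genes fell. Aldh1a2, which makes retinoic acid, was 3.03 to 3.49 with room air and 2.64 to 2.76 with smoke, without overlap. It fell by 0.52 on the log2 scale (SE 0.08, adjusted p = 0.00148). Aldh1l1, an enzyme of folate metabolism that acts on formyl-tetrahydrofolate, fell by 0.39 (SE 0.074, adjusted p = 0.00812), also without overlap. Both were lower on all 5 slides and kept the call without each array in turn. The list thus held 2 genes in each direction.

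Of 14 other aldo-keto reductases, Akr1c13, of the hydroxysteroid dehydrogenase group, rose 1.27-fold (adjusted p = 0.0358). It lost the call without room air replicate 1, 2 or 3 or smoke replicate 2, 3, 4 or 5 (adjusted p up to 0.0913). With the slide as a block, Akr1a1, Akr1c12 and Akr1c19 passed as well, each higher by 0.26 to 0.35, as did Aldh18a1 of the dehydrogenases. Akr1b3 and Akr1b10, the other genes of the subfamily of Akr1b8, differed by 0.13 and 0.21 and did not pass (adjusted p = 0.358 and 0.202). None of the 3 other alcohol dehydrogenases passed in limma, and Adh5, which oxidizes the glutathione adduct of formaldehyde, differed by 0.03. Adh6b was not analysed here. Among the 44 measured genes, Akr1c18 and Akr1d1 were well above background in red on 0 of 10 arrays, Akr1c20 and Adh6a on 1, Adh4 on 2, and Akr1c6 and Akr1c21 on 5. None of the 6 other carbonyl reductases passed either: Dcxr differed by 0.24, Cbr4 by 0.14, Cbr1 by 0.13, Cbr2 by 0.05, Dhrs4 by 0.0080 and Hsd11b1 by -0.27.

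Of 6 genes that handle alkenals, formaldehyde and glyoxal, 3 rose, and their median difference was 0.31. Esd, the hydrolase that completes formaldehyde oxidation by freeing formate from glutathione, averaged -1.89 ± 0.12 (SD) with room air and -1.23 ± 0.08 with smoke, without overlap. This brightest of 3 Esd probes rose 1.58-fold (adjusted p = 0.000112), or 0.66 on the log2 scale. The mean of all probes of Esd rose by 0.47 (adjusted p = 9.71e-05, limma). Gsta4, a glutathione transferase for hydroxynonenal, rose 1.49-fold (adjusted p = 0.000397), again without overlap, and lost the call with median centring in place of loess (adjusted p = 0.0871). Ptgr1, which reduces alkenals, rose 1.35-fold (adjusted p = 0.0245) with overlapping groups, and lost the call without room air replicate 3 or smoke replicate 1, 3 or 5 (adjusted p up to 0.0687). Hagh and Ptgr2 differed by 0.19 and 0.04, and Glo1, the first enzyme of glyoxal removal, by -0.13, and these 3 did not pass.

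**Figure D4:**
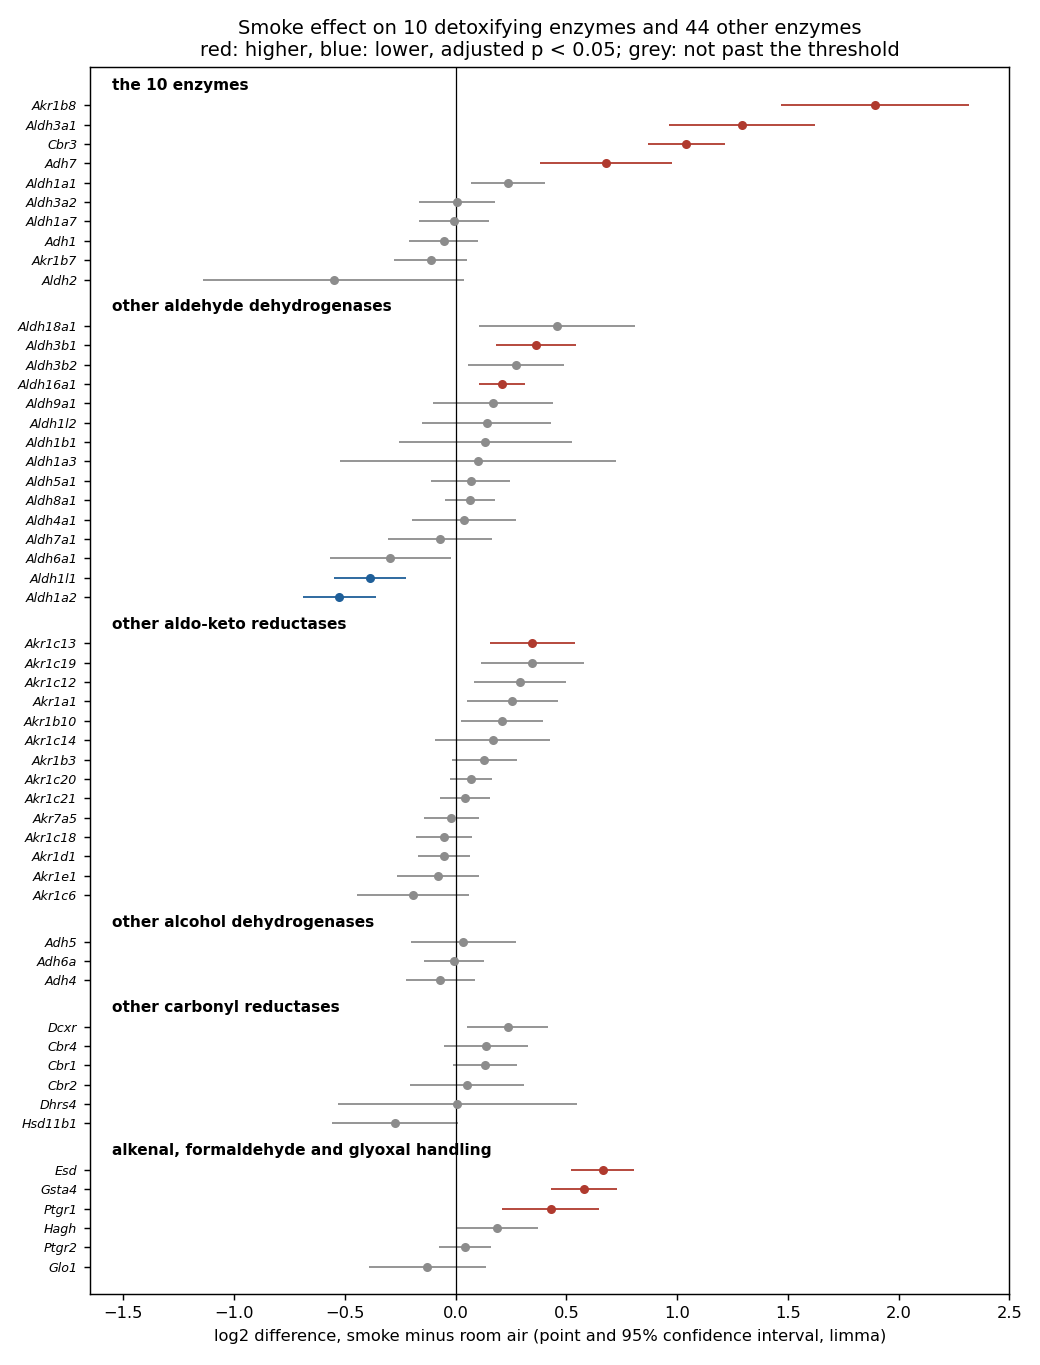
Log2 difference between smoke and room air with its 95% confidence interval from limma for the 10 enzymes and 44 other enzymes, by list (red, higher; blue, lower; grey, not past the threshold). Akr1b8, Aldh3a1, Cbr3 and Adh7 lie at the right, from 0.68 to 1.89, with Esd next at 0.66. The intervals of Esd and Adh7 overlap, and their order changed when some arrays were left out (0.71 and 0.64 without room air replicate 1).

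Markers of macrophages moved with the same comparison. Of 6 markers, 5 were higher with smoke (Cd68, Adgre1, Marco, Mrc1 and Csf1r) and Siglecf was not past the threshold, with a median difference of 1.26. Their summed red signal, in units of the 75th percentile of an array, was 15.8, 11.5, 10.2, 9.44 and 13.0 in room air replicates 1 to 5 and 52.1, 51.6, 52.5, 53.4 and 60.3 in the smoke replicates, with Marco the brightest, and all 6 were above background. Room air replicate 1 was the highest of its group in this sum, as it was for Akr1b8, but the single markers did not share this order. In the ratio it was the highest room air lung for Marco (4.86) and Cd68 (-1.16). It was the lowest for Adgre1 (-0.16), Siglecf (1.96) and Csf1r (0.76), and neither for Mrc1 (3.45). The part of macrophage number in the rise of Akr1b8, Aldh3a1, Cbr3 and Adh7 was not tested. None of 6 markers passed for club and secretory cells (median difference 0.12), ciliated cells (0.16), basal and squamous epithelium (0.034) or alveolar type 2 cells (0.068), and none of 5 for hepatocytes (-0.10). With the slide as a block, Scgb3a1 and Sftpd of the first list and Cfap43 of the second passed as higher. Krt4 and Krt6a of basal and squamous epithelium and Ttr of hepatocytes were well above background in red on at most 1 array per group. A change in these markers could hardly be seen. The hepatocyte medians hide 2 lungs, noticed after their values were seen: Alb was 2.00 and 2.83 in room air replicates 3 and 5 and 0.08 to 0.48 in the other lungs. The summed hepatocyte signal was 0.911 and 3.05 in these lungs and 0.149 to 0.422 in the others. In the ratio of its brightest probe Adh1 was highest of the room air lungs in the same 2, at 4.85 and 4.82. Smoke replicate 2 also had 4.85. The overlapping probe of Adh1 was highest in room air replicate 3 (4.50) but read 3.97 in replicate 5, below 4.11 in replicate 2. With the red signal alone the brightest probe was highest in room air replicate 2. A link between Adh1 and these markers was not tested.

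Profiles over the 10 lungs were compared by the root mean square difference of log2 ratios, each gene centred on its mean, among 17135 genes well above background in red on all arrays. Nearest to Aldh3a1 were Atp6v0d2 (0.21), Ugt1a6b (0.21), Klra21 (0.22), Ces1g (0.22) and Slc37a2 (0.22), in a profile that spanned 1.95. They rose 2.11- to 2.57-fold, and a rise near that of Aldh3a1 follows from picking them by likeness over both groups. Nearest to Akr1b8 were Adam8 (0.13), a probe without a gene name (0.18), Lilrb4a (0.22), Clec7a (0.22) and Cd300lf (0.25), in a profile that spanned 2.49.

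**Figure D5:**
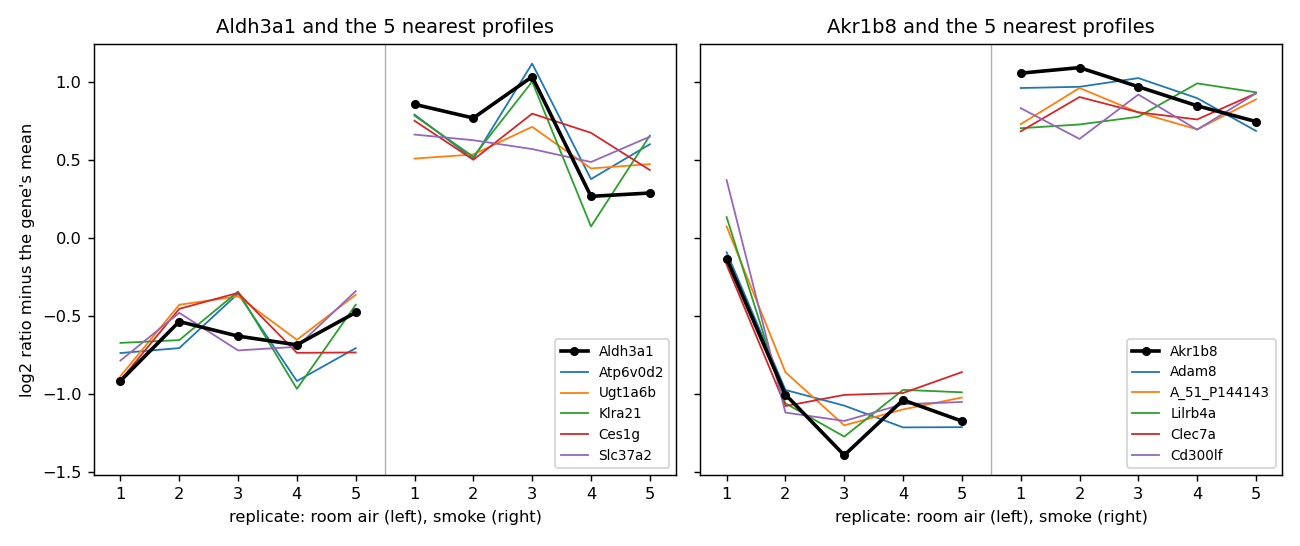
Log2 ratio, centred on each gene's mean, over 5 room air and 5 smoke replicates for Aldh3a1 (left, black) and Akr1b8 (right, black) with the 5 genes of nearest profile in colour. Room air replicate 1 is the lowest room air lung in the profile of Aldh3a1 and the highest in that of Akr1b8.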

How the data were processed

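Lung RNA of 5 smoke-exposed and 5 room air-exposed mice was hybridized to 2-colour Agilent arrays with 1 array per mouse. Without the slide as a block, p-values therefore measure the spread between mice together with that between arrays and slides. The authors deposited scanner files with the mean, median and background intensity of each spot in red and green and a processed signal. The deposited scanner files also hold a log10 ratio of red over green. The authors' table of log2 values equals, within 0.0001, the mean log2 of both channels of the array with the same number in the other group (286449 of 286449 values), and was used as an alternative chosen after seeing the data.

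Mean intensities were corrected with normexp of limma 3.58.1 (R 4.3.3) with an offset of 50, normalized by loess within each array, with control and outlier-flagged spots left out, and averaged by probe. Groups were compared with lmFit and eBayes, with Benjamini-Hochberg adjustment over all 41173 probes tested and a threshold of 0.05. The code was tested on simulated data. Of the probes, 22944 were named through their accession in RefSeq, 6664 by current symbol, 3108 by synonym, and 8458 kept the name in the file. For genes with several probes, the brightest in red stood for the gene.

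The 10 members, the pairs and the gene lists were chosen with earlier results of these data known. Named were all members, list genes past the threshold, all genes of lists of 6 or fewer, the 5 nearest profiles of Aldh3a1 and Akr1b8, and channel checks. The design had been written for the ratio of red over green. Arrays of the same replicate number share a slide, with smoke in place 1 and room air in place 2, so place and group cannot be told apart. They deviated together from their group means (correlations of 0.157, 0.46, 0.461, 0.55 and 0.415 for numbers 1 to 5, where arrays of different numbers had a median of -0.124 and reached 0.205), so the number was taken to pair the samples, although number 1 alone is not set apart. Alternatives changed the block, background correction, normalization, channel, filter, flags, test and probe rule, and left out each array.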

Additional observations from a re-analysis of the deposited data

Results flagged for a closer look

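In 5 of 76 groups of 5 lungs tested, 1 lung lay far from the rest, by a rule that chance alone meets in about 1 in 20 groups. Room air replicate 3 read 4.50 for the overlapping probe of Adh1, above its group. For Aldh3b1, room air replicate 1 was low at 1.73, and for Aldh16a1 room air replicate 4 was high at 0.18. Smoke replicate 2 was low for Dhrs4 at -0.75, and room air replicate 2 was low for Glo1 at -0.22. None of these 5 groups belongs to Aldh3a1, Akr1b8, Adh7 or Cbr3.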

How the results depend on the processing

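Aldh3a1, Akr1b8, Adh7 and Cbr3 stayed past the threshold in all alternatives of limma on the scanner files and without any array in turn. Their adjusted p without an array was at most 0.00177, 0.000925, 0.0346 and 0.000141. The exact Wilcoxon test called 0 probes (5444 at an unadjusted p under 0.05), 0 of the 10 enzymes and 0 of the 44 other enzymes, with an adjusted p of 0.115 for these 4. That value is what the smallest p of 5 against 5, 0.00794, became after adjustment. No probe could therefore pass, and the Wilcoxon counts do not test the calls.

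Probes past the threshold were 2906, and 5019 with the slide as a block, 1434 with median centring, 1759 with red alone at the 75th percentile, 13 with the authors' table, and 2102 to 3660 without an array. With median centring 687 probes were higher and 747 lower, against 1793 and 1113, so the excess of higher calls reversed. Of the other enzymes 8 passed, and 3 with median centring and 5 to 9 without an array. Aldh3b1, Aldh16a1, Akr1c13, Ptgr1 and Gsta4 lost the call with median centring (adjusted p = 0.351, 0.817, 0.482, 0.323 and 0.0871), Akr1c13 and Ptgr1 with the scanner's own ratio (0.0826 and 0.0524), and Aldh16a1 and Akr1c13 with red alone at the 75th percentile (0.386 and 0.284) or after quantile normalization (0.127 and 0.311). The pair differences kept their sign and call without any array: 1.20 to 1.38 for Aldh3a1 and Aldh3a2, 0.18 to 0.29 for Aldh1a1 and Aldh1a7, 1.86 to 2.23 for Akr1b8 and Akr1b7, 0.68 to 0.81 for Adh7 and Adh1, and 0.85 to 0.99 for Cbr3 and Cbr1. With red alone at the 75th percentile and with the scanner's own ratio, the difference was larger for Aldh3a1 and Aldh3a2 (2.96 and 2.80). It was also larger for Adh7 and Adh1 (2.14 and 2.06) and for Aldh1a1 and Aldh1a7 (0.39 and 0.29). Cbr3 and Cbr1 gave 1.00 and 0.96, and Akr1b8 and Akr1b7 gave 1.98 and 2.26. Pairs were not tested within slides, where an exact p cannot fall below 0.0625. Quantile normalization of averages leaves ratios unchanged by construction.

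The authors' table, added after the data were seen and read with its groups as labelled, gave opposite signs for every enzyme called without the block, and 0 of the 10 enzymes and 0 of the others passed in limma (764 probes at an unadjusted p under 0.05). Aldh3a2, not called, kept its sign (0.0082). It gave Aldh3a1 -1.41, Akr1b8 -0.79, Adh7 -0.80, Cbr3 -0.46, Aldh1a2 0.66, Aldh1l1 0.44, Aldh3b1 -0.10, Aldh16a1 -0.033, Akr1c13 -0.011, Ptgr1 -0.20, Esd -0.28 and Gsta4 -0.22. Aldh3a1 and Aldh3a2 were not compared there, and the exact test of the other 4 pairs passed in the reversed direction (adjusted p of 0.0317 to 0.0397), with differences of -0.25 (Aldh1a1 and Aldh1a7), -0.80 (Akr1b8 and Akr1b7), -1.01 (Adh7 and Adh1) and -0.49 (Cbr3 and Cbr1). Its values average both channels of the other group's arrays, so signs depend on which assignment of groups is right. The authors' paper lists Aldh3a1 and Atp6v0d2 as raised by smoke in mice, which is the direction of the scanner files. The cause of the exchange was not tested.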
